A study of Mus musculus with 6 samples.

Results

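The exon junction complex (EJC) and nonsense-mediated mRNA decay (NMD) factors are described here in a neural crest cell (NCC) line after knockdown of Nedd4, which encodes a HECT-type ubiquitin ligase. The listed genes were Eif4a3, Magoh, Magohb, Rbm8a and Casc3 of the EJC core, and Upf1, Upf2, Upf3a, Upf3b and Smg1 of the NMD core. Each was followed through the array probeset that carries its symbol alone, and through the one with the highest mean where a gene has more than 1. This gave 6 of the 10 listed genes, out of 19933 genes with a probeset of their own. Magoh, Magohb, Upf3a and Upf3b have no such probeset in the probe annotation used here and were not analysed.

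The EJC is a protein clamp that the spliceosome leaves upstream of exon-exon junctions of a new mRNA. EIF4A3, a DEAD-box RNA helicase, grips the RNA, the pair formed by RBM8A (also called Y14) with MAGOH or MAGOHB locks that grip, and CASC3 (also called MLN51) joins the assembled complex. When a ribosome stops at a stop codon with an EJC still ahead of it, the UPF and SMG proteins can assemble at that site and mark the mRNA for decay, so the pathway removes transcripts with premature stop codons and tunes many normal ones. The EJC matters for the neural crest: EIF4A3 mutations in humans cause a craniofacial syndrome, and mice with reduced Eif4a3 in the neural crest have craniofacial defects.

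NCU10K, an immortalized mouse NCC line, was transfected for 48 h with Nedd4 siRNA or with a low GC control siRNA, as 3 biological repeats of each siRNA, and the RNA of every repeat was put on its own Affymetrix mouse gene array. All cells received the same lipid reagent and the same serum-containing medium. The methods give 1 Nedd4 siRNA sequence and the arrays hold no rescue, so loss of Nedd4 and other effects of that siRNA cannot be told apart. Values are log2 expression values, and the siRNAs were compared by limma. A gene passed the test when its p, adjusted by Benjamini-Hochberg across the 28440 probesets, was under 0.05.

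Nedd4 itself was at 10.45, 10.94 and 10.68 in Nedd4 siRNA arrays, against 12.24, 12.35 and 12.34 in control siRNA arrays, a 3.07-fold lower level in knockdown cells (log2 fold change −1.62, SE 0.12, adjusted p = 3.16e-06, limma). Array medians lay between 6.28 and 6.35, and precision is limited by how many arrays there are. Of 10 neural crest markers, 9 lay above every array median, among them Sox10 and Foxd3. Their mean level was between 9.23 and 9.33 in Nedd4 siRNA arrays and between 9.40 and 9.49 in control siRNA arrays, and 5 of them passed the test as lower and 2 as higher after knockdown, where 9.13% and 9.62% of all 19933 genes did. Of the 10, 8 had negative log2 fold changes. The 10 smooth muscle, pericyte and fibroblast markers had a mean level between 6.83 and 6.95 in Nedd4 siRNA arrays and between 6.65 and 6.80 in control siRNA arrays, with 2 past the test as higher, 0 as lower and 6 below every array median, and 3 had negative log2 fold changes. Of 6 neuronal markers measured, 1 passed the test as higher and 0 as lower, 2 had negative log2 fold changes and 5 lay below every array median, with a mean level between 5.51 and 5.64 in Nedd4 siRNA arrays and between 5.48 and 5.62 in control siRNA arrays. The part of these shifts in the results below was not tested.

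Of the 6 measured EJC and NMD factors, 1 passed the test, Eif4a3, which was lower in Nedd4 knockdown cells. Over all probesets 16.1% passed in either direction and 7.96% as lower, and over the 19933 genes 18.7% passed, 9.62% as higher and 9.13% as lower, so 1 of 6 is close to these shares. These shares include dim probesets, which passed less often. With the dimmest 50% of probesets left out, 4745 of 14218 probesets and 2 of the 6 members passed. With the methods' t-test 0 of the 6 passed, against 7.50% of all probesets. The median log2 fold change of the 6 genes was 0.14, against −0.01 over all probesets and 0.03 without the dimmest 50% of probesets. The Nedd4 siRNA and control siRNA arrays did not overlap for 3 of the 6, lower for Eif4a3 and higher for Upf1 and Smg1. Over all probesets the groups did not overlap for 28.3% (14.2% higher and 14.1% lower). This share includes dim probesets and was not computed without them. All 6 genes lay above the median of every array. Fewer cells that express a gene and less RNA per cell cannot be told apart in such bulk RNA.

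**Figure D1:**
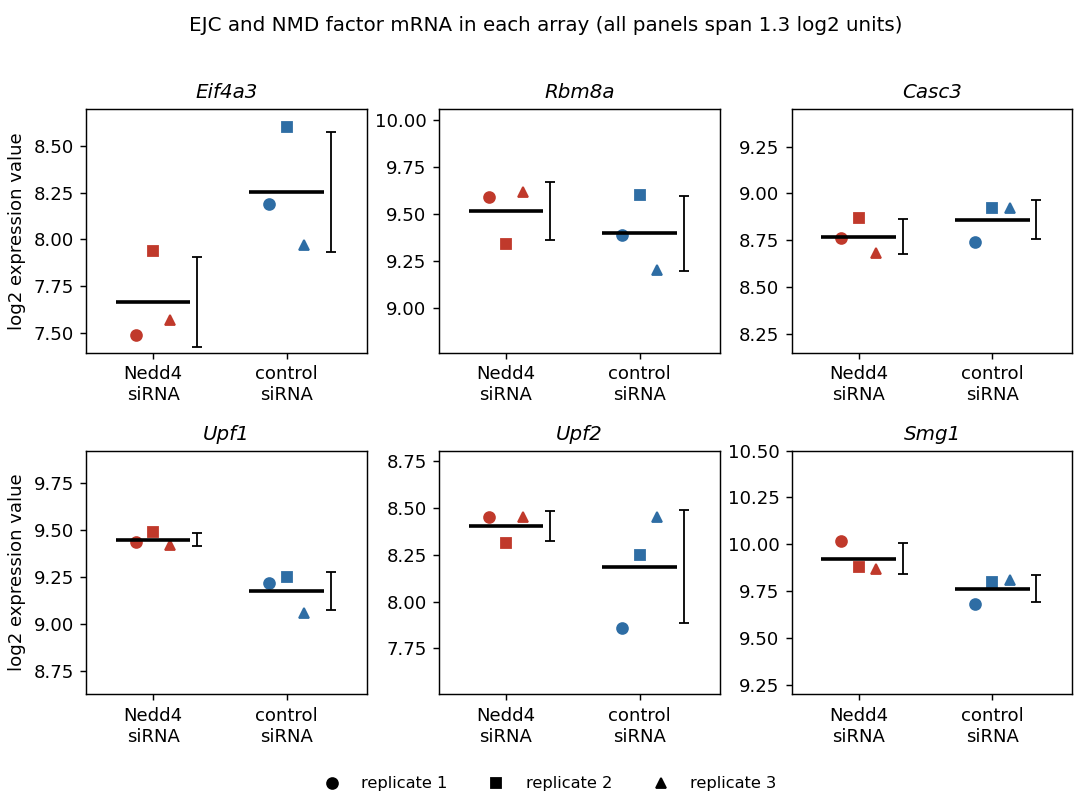
Log2 expression value of each measured EJC and NMD factor in each array, with the 3 Nedd4 siRNA arrays in red left of the 3 control siRNA arrays in blue. Symbols mark replicates, horizontal lines group means and vertical bars the SD; the Nedd4 siRNA arrays lie below all control arrays for Eif4a3 and above them for Upf1 and Smg1, while the groups overlap for Rbm8a, Casc3 and Upf2.

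Eif4a3 encodes the RNA-gripping helicase of the EJC. It lies on the minus strand of chromosome 11 (GRCm38.p6, chr11:119288363-119300043). Its own probeset, 10393642, was at 7.49, 7.94 and 7.57 in Nedd4 siRNA arrays, against 8.19, 8.60 and 7.97 in control siRNA arrays. Replicate 2 was the highest in both groups, and the highest Nedd4 siRNA array was only 0.03 below the lowest control array. The means were 7.67 ± 0.24 in Nedd4 siRNA cells and 8.25 ± 0.32 in control siRNA cells (SD, n = 3 each), a 1.50-fold lower level with a log2 fold change of −0.59 (SE 0.16, 95% interval −0.92 to −0.25, adjusted p = 0.0204, limma). The residual SD of this probeset was 0.283, more than the 0.117 at the median of all probesets. The call was lost with the methods' t-test (adjusted p = 0.259). It was also lost in limma without Nedd4 siRNA replicate 1 (adjusted p = 0.101), without Nedd4 siRNA replicate 3 (adjusted p = 0.0642) and without control siRNA replicate 2 (adjusted p = 0.072), while the direction stayed the same in each case.

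Eif4a3 has a close copy, Eif4a3l1, on chromosome 6, and 2 further probesets are annotated to both genes. The first, 10539177, was at 9.38, 9.68 and 9.52 in Nedd4 siRNA arrays, against 10.20, 10.23 and 9.79 in control siRNA arrays. The second, 10541067, was at 8.95, 9.21 and 9.11 in Nedd4 siRNA arrays, against 9.81, 9.82 and 9.34 in control siRNA arrays. In both, every Nedd4 siRNA array lay below every control array. Their log2 fold changes were −0.55 (SE 0.13, adjusted p = 0.00899, limma) and −0.57 (SE 0.13, adjusted p = 0.00878, limma), close to that of the probeset of Eif4a3 alone. The probeset annotated to Eif4a3l1 alone was at 5.71, 6.14 and 5.78 in Nedd4 siRNA arrays and at 5.79, 6.02 and 6.09 in control siRNA arrays, below the median of each array. It did not pass the test (log2 fold change −0.09, adjusted p = 0.763, limma). All these probesets read the same RNA samples, so they are not independent replicates, and they may also detect RNA from the other copy. Both shared probesets lost the call with the methods' t-test (adjusted p = 0.165 and 0.171) and in limma without Nedd4 siRNA replicate 1 (adjusted p = 0.0553 and 0.0523).

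The promoters of Eif4a3, the gene that fell, and of Upf1, the gene with the largest positive log2 fold change of the 6, are shown to place the members with opposite signs side by side (RefSeq, GRCm38.p6, 250 bases before to 50 after the start site that the promoter table uses, coding strand). For Upf1, Upf2 and Smg1 that site lies inside the gene's span given here, not at its outer end. Capitals mark the GC box letters GGGCGG on either strand, which SP-family transcription factors are known to bind. They are in 6 of the 8 listed members with an entry, which include all 4 measured ones (Eif4a3, Upf1, Upf2 and Smg1), are missing from the windows of Magoh and Magohb, and are in 35.7% of the 32851 promoters of the table. CpG dinucleotides numbered 42 in the Eif4a3 window and 47 in the Upf1 window, where the median of all promoters was 7. Such matches describe the letters of these windows alone.
Eif4a3, chr11:119299994-119300293, minus strand: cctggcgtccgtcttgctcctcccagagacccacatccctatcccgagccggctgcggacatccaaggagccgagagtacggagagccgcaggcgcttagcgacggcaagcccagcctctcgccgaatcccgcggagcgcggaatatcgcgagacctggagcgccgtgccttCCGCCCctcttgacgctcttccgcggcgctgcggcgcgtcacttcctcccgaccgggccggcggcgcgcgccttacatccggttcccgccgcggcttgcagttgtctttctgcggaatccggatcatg
Upf1, chr8:70353230-70353529, minus strand: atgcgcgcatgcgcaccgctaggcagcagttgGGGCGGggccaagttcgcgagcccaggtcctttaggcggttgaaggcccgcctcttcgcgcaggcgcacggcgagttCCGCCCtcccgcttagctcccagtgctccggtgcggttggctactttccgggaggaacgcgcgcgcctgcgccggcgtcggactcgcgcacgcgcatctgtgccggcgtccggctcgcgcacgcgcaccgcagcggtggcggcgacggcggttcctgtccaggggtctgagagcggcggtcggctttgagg

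The partners of EIF4A3 in the EJC core gave no call in either direction. Rbm8a encodes Y14, which with MAGOH locks EIF4A3 on the RNA (chr3:96629928-96633791). Its probeset, 10494452, was at 9.59, 9.34 and 9.62 in Nedd4 siRNA arrays, against 9.39, 9.60 and 9.20 in control siRNA arrays. The groups overlapped, with the control replicate 2 above the lowest 2 knockdown arrays. The log2 fold change was 0.12 (SE 0.12, 95% interval −0.13 to 0.37, adjusted p = 0.631, limma). Casc3 encodes the component that remains with the complex in the cytoplasm (chr11:98809808-98833807). Its probeset, 10381032, was at 8.76, 8.87 and 8.68 in Nedd4 siRNA arrays, against 8.74, 8.92 and 8.92 in control siRNA arrays. These groups overlapped too, and the log2 fold change was −0.09 (SE 0.094, 95% interval −0.29 to 0.11, adjusted p = 0.663, limma). The interval for Rbm8a leaves room for differences of up to 0.37 on the log2 scale, so these arrays do not show that the partners stayed level.

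The 3 measured NMD core genes all had positive log2 fold changes, between 0.16 and 0.27, and none passed the test. Upf1 encodes the RNA helicase at the centre of NMD, which is recruited to the stalled ribosome and then phosphorylated (chr8:70331493-70353423). Its probeset, 10579234, was at 9.44, 9.49 and 9.42 in Nedd4 siRNA arrays, against 9.22, 9.25 and 9.06 in control siRNA arrays. Every knockdown array lay above every control array, with means of 9.45 ± 0.036 in Nedd4 siRNA cells and 9.18 ± 0.10 in control siRNA cells (SD, n = 3 each). The log2 fold change of 0.27 (SE 0.089, 95% interval 0.08 to 0.47 before adjustment) had an adjusted p of 0.0564 from limma, just above the threshold. It was below the threshold under 6 of 15 alternatives, over which the adjusted p ran from 0.0341 to 0.174 (limma and the methods' t-test).

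Smg1 encodes the kinase that phosphorylates UPF1 (chr7:118131308-118244437). Its probeset, 10567229, was at 10.02, 9.88 and 9.87 in Nedd4 siRNA arrays, against 9.68, 9.80 and 9.81 in control siRNA arrays. The groups did not overlap, but by a margin of only 0.06, and the log2 fold change was 0.16 (SE 0.089, 95% interval −0.03 to 0.35, adjusted p = 0.31, limma). Upf2 encodes the adaptor between UPF1 and the UPF3 proteins (chr2:5951447-6056703). Its probeset, 10469083, was at 8.45, 8.31 and 8.45 in Nedd4 siRNA arrays, against 7.86, 8.25 and 8.45 in control siRNA arrays. The control arrays spread over 0.59 and reached the highest knockdown value, and the knockdown arrays spread over 0.14. The log2 fold change of Upf2 was 0.22 (SE 0.13, 95% interval −0.07 to 0.50, adjusted p = 0.364, limma), and it was 0.05 without control siRNA replicate 1, the array with the lowest value.

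**Figure D2:**
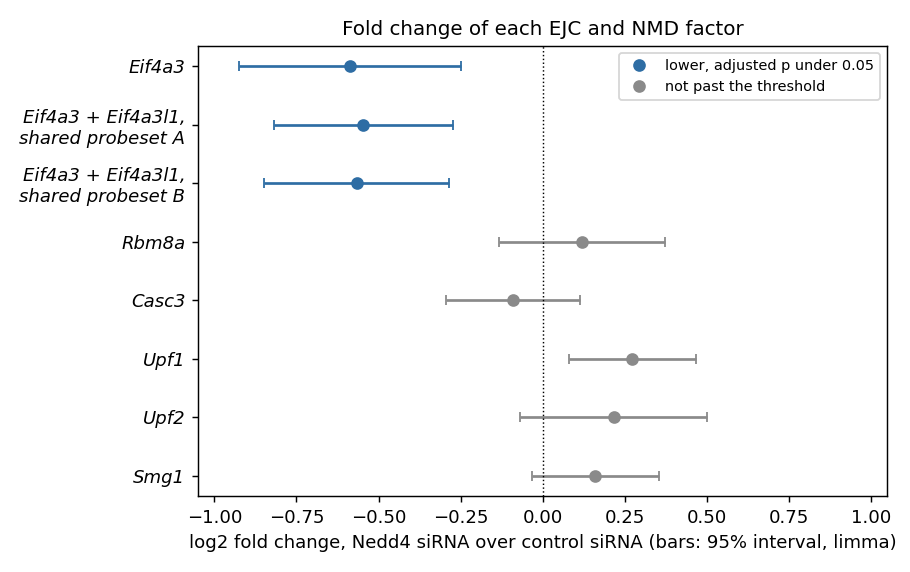
Log2 fold change of each measured EJC and NMD factor, Nedd4 siRNA over control siRNA, with the 2 probesets shared by Eif4a3 and Eif4a3l1 (A, 10539177; B, 10541067). Each point is the estimate from limma, with its unadjusted 95% interval as a bar; Eif4a3 and the shared probesets (blue) lie between −0.59 and −0.55 and the other 5 genes (grey), from −0.09 for Casc3 to 0.27 for Upf1, did not pass the threshold.

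The fall of Eif4a3 was set against each other member within the same arrays, by the difference of their log2 fold changes. It was −0.86 against Upf1, −0.80 against Upf2, −0.75 against Smg1, −0.71 against Rbm8a and −0.50 against Casc3. Against Upf1, Smg1 and Rbm8a the within-array difference was lower in every knockdown array than in every control array, and against Casc3 and Upf2 the groups overlapped. For Upf1 and Smg1 this had to follow, as Eif4a3 was lower and each of them higher in every knockdown array. Eif4a3 was set against the others because it had passed, so these 5 differences are a description and were given no test. The share of all genes from which Eif4a3 was set apart in this way was not computed.

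Beyond the 6 members, 51 genes were measured in 4 further lists, which hold pathway factors and also transcripts reported to be NMD targets. Of these genes 12 passed the test, 6 higher and 6 lower, with a median log2 fold change of 0.05. Over all probesets 8.14% passed as higher and 7.96% as lower, and over genes the shares were 9.62% and 9.13%. With the dimmest 50% of probesets left out, 2477 of 14218 passed as higher and 2268 as lower. Most genes of the 4 lists were bright. In the order below, 13 of 13, 13 of 14, 14 of 14 and 8 of 10 lay above every array median. These shares are the background for the count of each list.

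Among 13 genes of EJC assembly, its peripheral proteins and mRNA export, 2 were higher, 1 lower and 10 did not pass. Rnps1 encodes a peripheral EJC protein that links the complex to splicing and NMD. It fell to 9.70, 9.93 and 9.90 in Nedd4 siRNA arrays, against 10.20, 10.43 and 10.21 in control siRNA arrays (log2 fold change −0.44, SE 0.10, adjusted p = 0.00939, limma). The groups were apart, and another Rnps1 probeset gave a log2 fold change of −0.40 (adjusted p = 0.017, limma). Pnn, which encodes the peripheral EJC protein pinin, rose to 9.99, 10.06 and 9.89 in Nedd4 siRNA arrays, against 9.49, 9.64 and 9.52 in control siRNA arrays (0.43, SE 0.090, adjusted p = 0.00522, limma). Ddx39a, an mRNA export helicase gene, also rose (0.41, SE 0.10, adjusted p = 0.0121, limma). RNPS1 and pinin are known to join in one peripheral subcomplex of the EJC, called PSAP, and their mRNAs moved in opposite directions. Sap18 of the same list had a log2 fold change of 0.15 and did not pass (adjusted p = 0.321, limma). Rnps1 and Ddx39a lost the call without Nedd4 siRNA replicate 1 (adjusted p = 0.0697 and 0.0822, limma) and with the methods' t-test, and Pnn passed in each of these.

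Among 14 other NMD factors measured, 1 was higher, 2 were lower and 11 did not pass. Ruvbl2, an ATPase gene whose product acts with RUVBL1 in assembling SMG1 and related kinases, fell to 9.13, 9.26 and 9.20 in Nedd4 siRNA arrays, against 9.54, 9.55 and 9.76 in control siRNA arrays (−0.42, SE 0.094, adjusted p = 0.00759, limma). Ncbp2, the small subunit gene of the nuclear cap-binding complex, fell as well, just past the threshold (−0.37, SE 0.12, adjusted p = 0.0491, limma). Pnrc2, which in human cells links UPF1 to decapping, rose to 12.37, 12.19 and 12.33 in Nedd4 siRNA arrays, against 11.92, 11.78 and 11.99 in control siRNA arrays (0.40, SE 0.094, adjusted p = 0.0104, limma). Without Nedd4 siRNA replicate 1 none of these 3 passed, with adjusted p of 0.0529 for Ruvbl2, 0.211 for Ncbp2 and 0.0699 for Pnrc2 (limma), nor did they with the methods' t-test. Ncbp2 also did not pass without any other single array except Nedd4 siRNA replicate 2.

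The next list holds the machinery that removes the cap and degrades the body of an mRNA. Of its 14 genes, 2 were higher, 3 lower and 9 did not pass. All 14 lay above every array median, and without the dimmest 50% of probesets 4745 of 14218 passed in either direction. Dcp1a, which encodes an activator of the decapping enzyme, fell to 8.58, 8.56 and 8.42 in Nedd4 siRNA arrays, against 9.04, 9.24 and 9.31 in control siRNA arrays (−0.68, SE 0.098, adjusted p = 0.000435, limma). Patl1, a decapping factor gene that bridges deadenylation and decapping, fell to 9.28, 9.25 and 9.18 in Nedd4 siRNA arrays, against 9.93, 9.83 and 9.74 in control siRNA arrays (−0.60, SE 0.089, adjusted p = 0.000529, limma). Xrn1, the exonuclease gene whose product degrades decapped mRNA, went the other way, at 10.02, 9.88 and 9.96 in Nedd4 siRNA arrays, against 9.41, 9.44 and 9.46 in control siRNA arrays (0.52, SE 0.085, adjusted p = 0.00106, limma). The groups were apart for all 3, and all 3 passed with the methods' t-test and without each single array. Edc4, a decapping scaffold gene, rose (0.32, SE 0.096, adjusted p = 0.0389, limma), and Wdr61, a subunit gene of the SKI complex named after its value was seen, fell (−0.35, SE 0.11, adjusted p = 0.0407, limma). Edc4 did not pass with the methods' t-test or without 5 of the 6 single arrays, the exception being control siRNA replicate 2 (highest adjusted p 0.144, limma). Wdr61 did not pass with the methods' t-test (adjusted p = 0.201) or without 5 of the 6 single arrays, the exception being control siRNA replicate 1 (highest adjusted p 0.149, limma).

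**Figure D3:**
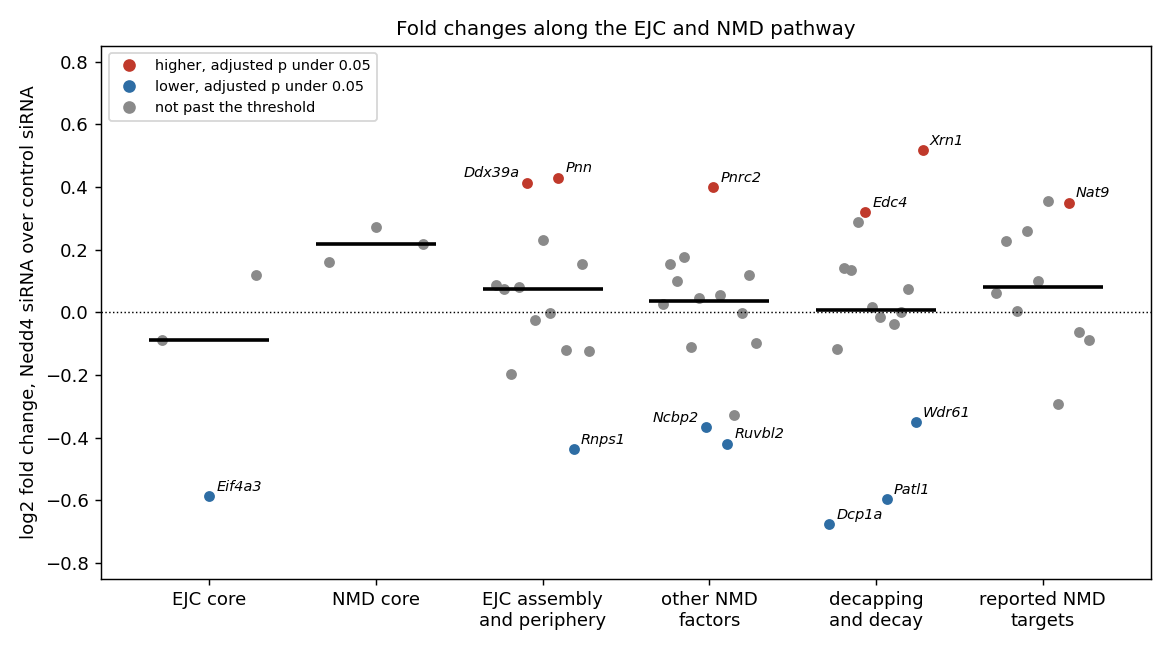
Log2 fold change of mRNA, Nedd4 siRNA over control siRNA, for each measured gene of the EJC and NMD core and of 4 further lists, of pathway factors and of reported NMD targets. Dots stand for genes, in red where a gene passed as higher, in blue where it passed as lower and in grey otherwise, and black lines for list medians; values run from −0.68 for Dcp1a to 0.52 for Xrn1.

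Of 10 measured transcripts reported elsewhere to be degraded by NMD, 1 was higher, 0 were lower and 9 did not pass. Their median log2 fold change was 0.08, and 3 of the 10 had negative log2 fold changes. Snhg1 and Snhg12 were not analysed here. Nat9, an acetyltransferase gene, rose to 6.60, 6.94 and 6.77 in Nedd4 siRNA arrays, against 6.46, 6.48 and 6.32 in control siRNA arrays (0.35, SE 0.10, adjusted p = 0.0355, limma). It passed without Nedd4 siRNA replicate 1 and failed without any other single array, with an adjusted p of up to 0.143 (limma), and it did not pass with the methods' t-test. Gas5, a host gene of small nucleolar RNAs whose spliced RNA is a known NMD substrate, was named after its values were seen because its probesets disagreed. Its highest-mean probeset did not pass (−0.29, adjusted p = 0.187, limma) and another did (−0.31, adjusted p = 0.0247, limma), while all 4 had negative log2 fold changes. The probeset that passed did not do so without control siRNA replicate 2 or any single Nedd4 siRNA replicate (adjusted p up to 0.0948, limma), and the highest-mean one passed without control siRNA replicate 3 (adjusted p = 0.013, limma). These probesets sum over isoforms, so the ratio of a degraded isoform to a stable one was not measured.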

How the data were processed

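Total RNA (300 ng) of NCU10K cells was taken 48 h after transfection and run on Affymetrix mouse gene arrays, 3 per siRNA. The authors deposited log2 expression values of 28440 probesets, made with Partek software, for which the submitters' processing notes give version 6.5. Background was corrected by RMA, probes were adjusted for GC content and a probeset's value is the mean of its probes. A normalization between arrays is not given in the sources used here, and none was added. Such summaries carry no sequencing depth. Probesets were named from the platform's annotation table, in which 21780 carry 1 gene symbol, 1618 several and 5042 none; gene locations and promoters are from RefSeq (GRCm38.p6).

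The siRNAs were compared in R 4.3.3 by limma 3.58.1 (lmFit and eBayes, no covariate, Benjamini-Hochberg adjustment over all probesets, threshold 0.05), and the procedure was tested on simulated data. The simulated noise was drawn independently for each value, so that test does not cover noise shared by the probesets of an array. The methods name an ANOVA, which with 1 factor of 2 groups is the methods' t-test; it was run as an alternative. Differences between Eif4a3 and the other members were computed within arrays under Python 3.11.15, were added after the values had been seen and were not tested. The members and lists were chosen with earlier results of these data known. The text names all members, Nedd4 and, per further list other than the cell type markers, up to 4 genes past the threshold with the smallest p. Wdr61 and Gas5 were named outside this rule. Of the cell type markers the text names only Sox10 and Foxd3, and Foxd3 is among the 4 with the smallest p of its list. The planned comparisons of Upf3a with Upf3b and of Magohb with Magoh were not run, as these genes were not analysed here. Other alternatives were eBayes with trend and robust, the replicate block, arrays centred on their medians or quantile normalized, tables without the 25% or 50% dimmest probesets or with single-symbol probesets only, the mean of a gene's probesets, and omission of each array in turn. Those for Wdr61, Gas5 and the probesets shared with Eif4a3l1 were chosen after seeing the data.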

Additional observations from a re-analysis of the deposited data

How the results depend on the processing

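The fold change of Nedd4 kept its direction and its side of the threshold under all 15 alternatives (−1.75 to −1.50 on the log2 scale). Of the 6 members, 1 passed the test, 0 did with the methods' t-test, and 2 did, Eif4a3 and Upf1, with quantile normalization, without the dimmest 25% or the dimmest 50% of probesets, with only single-symbol probesets and with the mean of a gene's probesets. Leaving out single arrays gave between 0 and 1. Each member kept the sign of its log2 fold change under all 15 alternatives, with ranges of −0.73 to −0.41 for Eif4a3, 0.22 to 0.31 for Upf1, 0.11 to 0.19 for Smg1, 0.05 to 0.35 for Upf2, 0.02 to 0.22 for Rbm8a and −0.15 to −0.045 for Casc3. Upf1 kept a log2 fold change of 0.27 without the dimmest 25% or 50% of probesets, with only single-symbol probesets and with the mean of a gene's probesets. The set tested differed there, and the adjusted p was 0.0490, 0.0341, 0.0442 and 0.0414 (limma). The cause of the log2 fold changes was not tested. With the replicate block 2 members passed, again Eif4a3 and Upf1 (adjusted p = 0.0021 and 0.0484, limma), and 4962 probesets in all, against 4579 without it. The labels number the repeats but do not say whether they are paired. The deviations of same-numbered arrays from their group means correlated at −0.0123, 0.472 and −0.0131. Those of differently numbered arrays correlated between −0.426 and 0.415, so these values do not settle the pairing. Without Nedd4 siRNA replicate 1, 2962 probesets passed, and the methods' t-test passed 2134.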
